A study of Mus musculus with 12 samples.

Results

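The genes described here encode the conjugating (phase II) enzymes of the liver other than the mu class glutathione transferases. They were chosen by symbol, and every gene of a family was taken. The families were Ugt1, Ugt2, Ugt3, Sult1 to Sult6, Gsta, Gstp, Gstt, Gstk, Gstz, Gsto and Mgst, together with Nat1 and Nat2. This rule uses no measured value, but it was set with earlier results of these data known. Of 18193 genes with an Affymetrix probe set of their own, 41 belonged to these families and were read by 49 probe sets. Each probe set is a small family of short probes against the transcripts of a gene. A further 11 genes (Gsta1, 8 Ugt1a genes, Ugt2a1 and Ugt2a2) were named only together with other genes, by 5 probe sets, and are described apart.

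Conjugation makes foreign and endogenous compounds more soluble so that they can leave the liver in bile or urine. Glutathione transferases (Gst, Mgst) join reactive electrophiles, among them products of tobacco smoke, to glutathione. UDP-glucuronosyltransferases (Ugt) add glucuronic acid to phenols, bilirubin, bile acids and steroids, sulfotransferases (Sult) add sulfate to phenols, steroids and bile acids, and N-acetyltransferases (Nat) acetylate aromatic amines. In hepatocytes several of these enzymes are known targets of the receptors for drugs and aromatic hydrocarbons and of the factor NRF2.

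Liver RNA of 12 adult male C57BL/6 mice on standard diet was hybridised to Affymetrix GeneChip mouse genome arrays, 1 mouse per array. Secondhand smoke (SHS) was given to the whole body. The 4 SHS4m mice (replicates 66 to 69) were taken after 4 months of exposure, the 4 SHS4m+1m recovery mice (replicates 70 to 73) after the same exposure and 1 month in clean air, and the 4 controls (replicates 1 to 4) were sham-exposed to filtered air. Sham-exposed mice were kept with and without a recovery period, and the labels do not say which of these the 4 controls were, so an age difference of 1 month from either SHS group cannot be told apart from the exposure. Both comparisons with control use the same 4 control arrays. Values are log2 of the array signal, given for each array in the order of the replicates, and signals under 32 (a log2 of 5) were raised to 32. A gene is said to have risen or fallen where the adjusted p from limma, over all probe sets, was under 0.05. Whole liver was measured, so fewer cells of a type and less RNA per cell cannot be told apart.

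Between 29.9% and 33.5% of the signals of an array lay under the floor, and the median signal was 65.1 to 78.1. Recovery replicate 72 had a 3' to 5' signal ratio of actin, a sign of RNA quality, of 8.82, against 3.24 to 4.64 on the remaining 11 arrays. The liver label was borne out by hepatocyte markers, with Alb at a mean log2 signal of 15.92 in controls, 15.61 in SHS4m mice and 15.71 in recovery mice. Of all genes, 7.47% passed the test in SHS4m mice, 2.52% after recovery and 3.68% between recovery and SHS4m mice. At these shares a list of 5 or 6 markers would hold few calls or none. None of 5 hepatocyte markers passed the test in any comparison. Clec4f, a Kupffer cell receptor, was 1 of 6 Kupffer cell and macrophage markers to pass it, with a log2 difference of -0.51 in SHS4m mice (adjusted p = 0.0173), and the summed signal of these 6 markers was 8950 to 10900 in controls, 6850 to 8640 in SHS4m mice and 7610 to 10700 in recovery mice. The summed signal of 3 B cell markers was 224 to 442, 169 to 217 and 251 to 384, and the markers of B cells, T cells, sinusoidal endothelium, stellate cells, cholangiocytes, adipocytes and neutrophils held no call. The part of these shifts in the results that follow was not tested.

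After 4 months of smoke, 10 of the 41 conjugating enzyme genes had changed. Of these, 7 rose, namely the glutathione transferases Gsta2, Gstt3, Gsto1 and Mgst3 and the sulfotransferases Sult1a1, Sult1d1 and Sult1e1, and 3 fell, namely the sulfotransferase Sult2a8 and the glucuronosyltransferases Ugt2a3 and Ugt2b38. Over all 18193 genes, 3.73% rose and 3.74% fell in this comparison. The log2 differences of the 41 genes ran from -1.75 (Ugt2b38) to 1.33 (Gstt3) around a median of 0.00, against a median of -0.01 over all genes. The arrays of the groups did not overlap for 16 of the 41 genes, 9 above and 7 below the controls, where 15.5% of all genes did not overlap. At the threshold of the study's methods, an unadjusted p under 0.05 and a 2-fold change, 3 genes were higher and 1 was lower, where 2.81% of all genes passed. After 1 month in clean air 2 of the 41 genes, Gstt2 and Sult1c2, stood above the controls at the adjusted p and none below. The plot of differences from control shows all 41 genes by family.

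**Figure D1:**
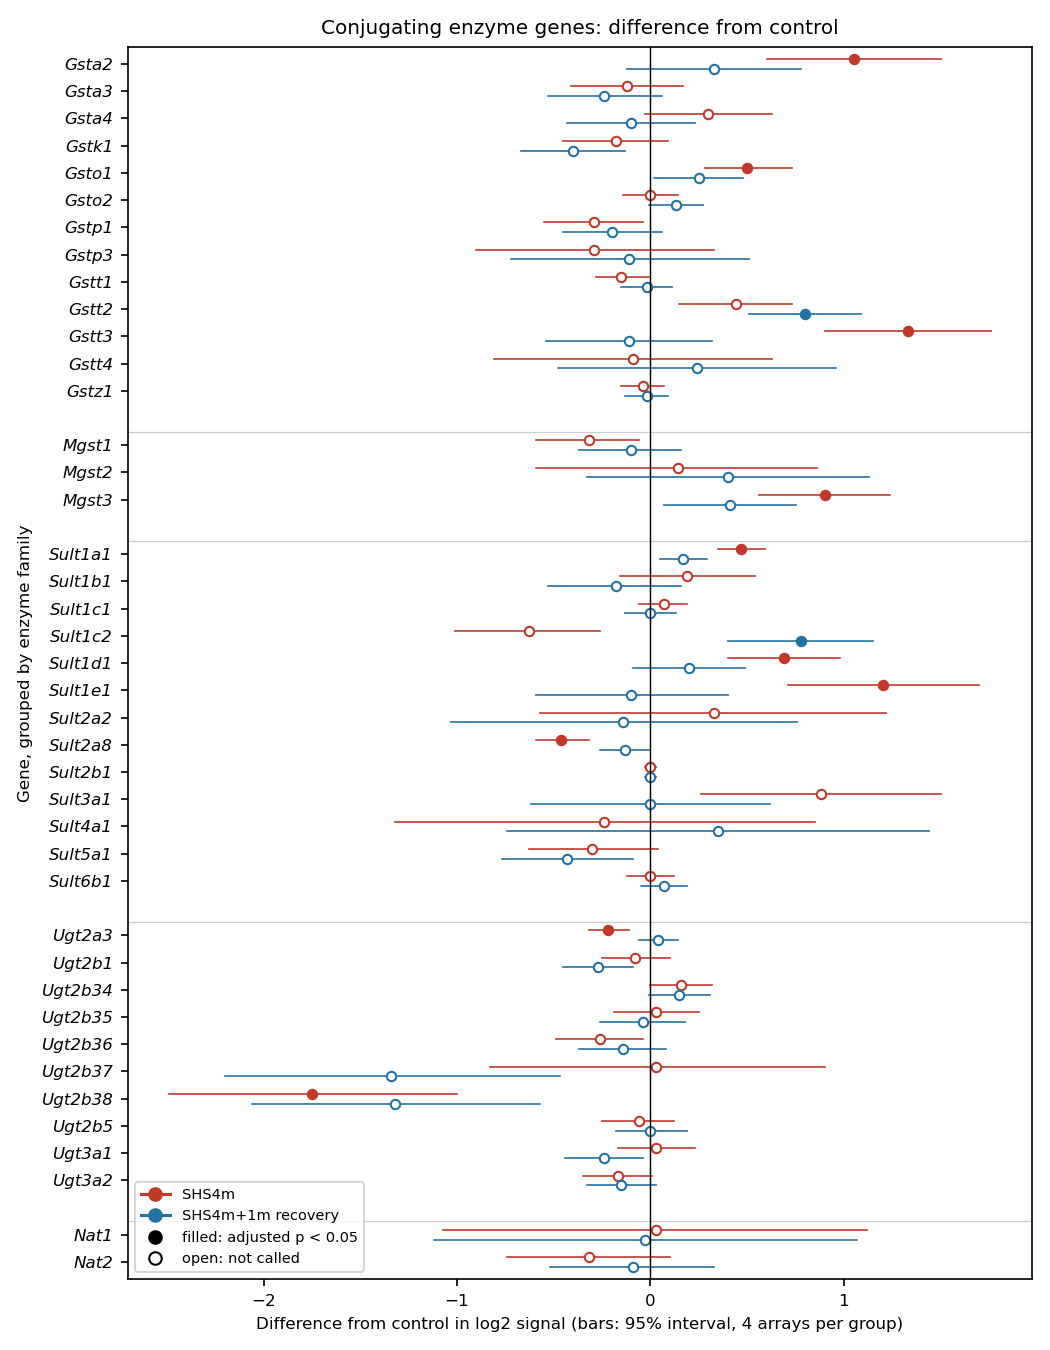
Difference from control in log2 signal (x axis) for each of the 41 conjugating enzyme genes (y axis, grouped by family), with 95% intervals from 4 arrays per group. Red points are SHS4m mice, blue points SHS4m+1m recovery mice and filled points passed the adjusted p; Gstt3 lies farthest to the right at 1.33 and Ugt2b38 farthest to the left at -1.75.

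Gsta2 is an alpha class transferase that conjugates electrophiles and reduces organic peroxides. Gsta2 (probe set 1421040_a_at) read 13.69, 13.31, 13.16 and 13.93 in controls, 14.75, 14.48, 14.68 and 14.38 in SHS4m mice and 14.16, 14.09, 13.67 and 13.49 in recovery mice. All SHS4m arrays lay above all control and recovery arrays, and the latter overlapped each other. In SHS4m mice Gsta2 rose 2.07-fold (log2 1.05 with a standard error of 0.200, adjusted p = 0.0166). Its difference from control after recovery was 0.33 (95% interval -0.12 to 0.78, adjusted p = 0.563), and its difference between recovery and SHS4m mice was -0.72 (adjusted p = 0.111).

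A probe set that names Gsta1, Gsta2 and Gm3776 together (1421041_s_at) read 13.09, 12.74, 12.45 and 13.45 in controls, 14.82, 14.53, 14.63 and 14.43 in SHS4m mice and 13.57, 13.36, 12.62 and 12.68 in recovery mice. Again the SHS4m arrays stood apart from both other groups, which overlapped. This shared signal was 3.18-fold higher in SHS4m mice than in controls (log2 1.67 with a standard error of 0.264, adjusted p = 0.00716) and was lower in recovery than in SHS4m mice (log2 -1.54, adjusted p = 0.0185). Which of the 3 genes it came from cannot be read from this probe set. Gsta3, singled out after its values were seen, was not called by the probe set read for it (1423436_at, log2 -0.12 in SHS4m and -0.24 in recovery mice against control), while a dimmer one (1423437_at) was lower in recovery mice than in controls (log2 -0.28 with a standard error of 0.0532, adjusted p = 0.0332) and than in SHS4m mice (log2 -0.25, adjusted p = 0.0394).

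Gstt3, a theta class transferase, had the largest rise of the 41 genes. Gstt3 (1423891_at) read 10.99, 10.88, 10.65 and 10.90 in controls, 12.48, 12.09, 12.01 and 12.15 in SHS4m mice and 11.06, 10.46, 10.32 and 11.13 in recovery mice. The SHS4m arrays stood apart, and the recovery arrays lay on both sides of the controls. In SHS4m mice Gstt3 rose 2.51-fold (log2 1.33 with a standard error of 0.192, adjusted p = 0.00475), and its signal was lower in recovery than in SHS4m mice (log2 -1.44, adjusted p = 0.00656). Its difference from control after recovery was -0.11 (95% interval -0.54 to 0.32).

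Gstt2, of the same class, had another order of groups. It read 12.43, 12.52, 12.06 and 12.27 in controls, 12.97, 12.83, 12.67 and 12.58 in SHS4m mice and 13.25, 13.31, 13.04 and 12.90 in recovery mice (1417883_at). Both exposed groups lay above every control array, and they overlapped each other. Gstt2 rose 1.75-fold in recovery mice over controls (log2 0.80 with a standard error of 0.129, adjusted p = 0.0170), against a difference of 0.44 in SHS4m mice (adjusted p = 0.0887) and of 0.36 between recovery and SHS4m mice (95% interval 0.07 to 0.65, adjusted p = 0.219). The call was lost in a model of the 8 arrays of both groups alone (adjusted p = 0.0652). Gstt1 and Gstt4, also of the theta class, were not called in any comparison. Gstt3, Gstt1 and Gstt4 start within a short stretch of chromosome 10, with 16309 bp between the starts of Gstt3 and Gstt1 and 24812 bp from there to Gstt4. No RefSeq promoter was matched for Gstt2, so its place relative to these starts was not read. The SHS4m difference of Gstt1 was -0.15 (adjusted p = 0.224) and that of Gstt4, at the floor on 9 of 12 arrays, was -0.09.

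Gsto1, an omega class enzyme that reduces dehydroascorbate and methylated arsenic, read 12.96, 13.13, 12.69 and 12.85 in controls, 13.44, 13.27, 13.47 and 13.46 in SHS4m mice and 13.30, 13.27, 13.00 and 13.06 in recovery mice (1456036_x_at). Its SHS4m arrays lay above the controls and overlapped the recovery arrays. In SHS4m mice Gsto1 rose 1.42-fold (log2 0.50 with a standard error of 0.101, adjusted p = 0.0207). By a dimmer probe set of the gene (1416531_at) the difference was 0.26 (adjusted p = 0.253). The call was lost in 7 of 20 alternatives (adjusted p up to 0.072), namely another floor, no floor, the mean of both probe sets, and the removal of control replicate 4 or SHS4m replicate 66, 68 or 69.

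Mgst3, a membrane-bound transferase with peroxidase activity, was the 1 called gene of 3 microsomal transferases. Mgst3 (1448300_at) read 10.53, 10.79, 10.58 and 10.68 in controls, 11.75, 11.45, 11.66 and 11.30 in SHS4m mice and 11.30, 11.17, 10.60 and 11.13 in recovery mice. SHS4m arrays were all above the controls, as were 3 of 4 recovery arrays when set against the highest control. In SHS4m mice Mgst3 rose 1.86-fold (log2 0.90 with a standard error of 0.152, adjusted p = 0.0098), and its difference from control after recovery was 0.41 (95% interval 0.07 to 0.75, adjusted p = 0.259). A much dimmer probe set (1450563_at) differed by 0.67 and 1.16 from control with adjusted p of 0.558 and 0.305, and the mean of both probe sets did not pass (adjusted p = 0.164). Mgst1 differed by -0.32 in SHS4m mice by the probe set read and by 0.39 by another, and neither passed (adjusted p = 0.182 and 0.319). Among the 13 cytosolic and mitochondrial transferases the 10 not called in SHS4m mice lay between -0.29 (Gstp1) and 0.44 (Gstt2), and the 12 not called after recovery between -0.40 (Gstk1) and 0.33 (Gsta2).

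**Figure D2:**
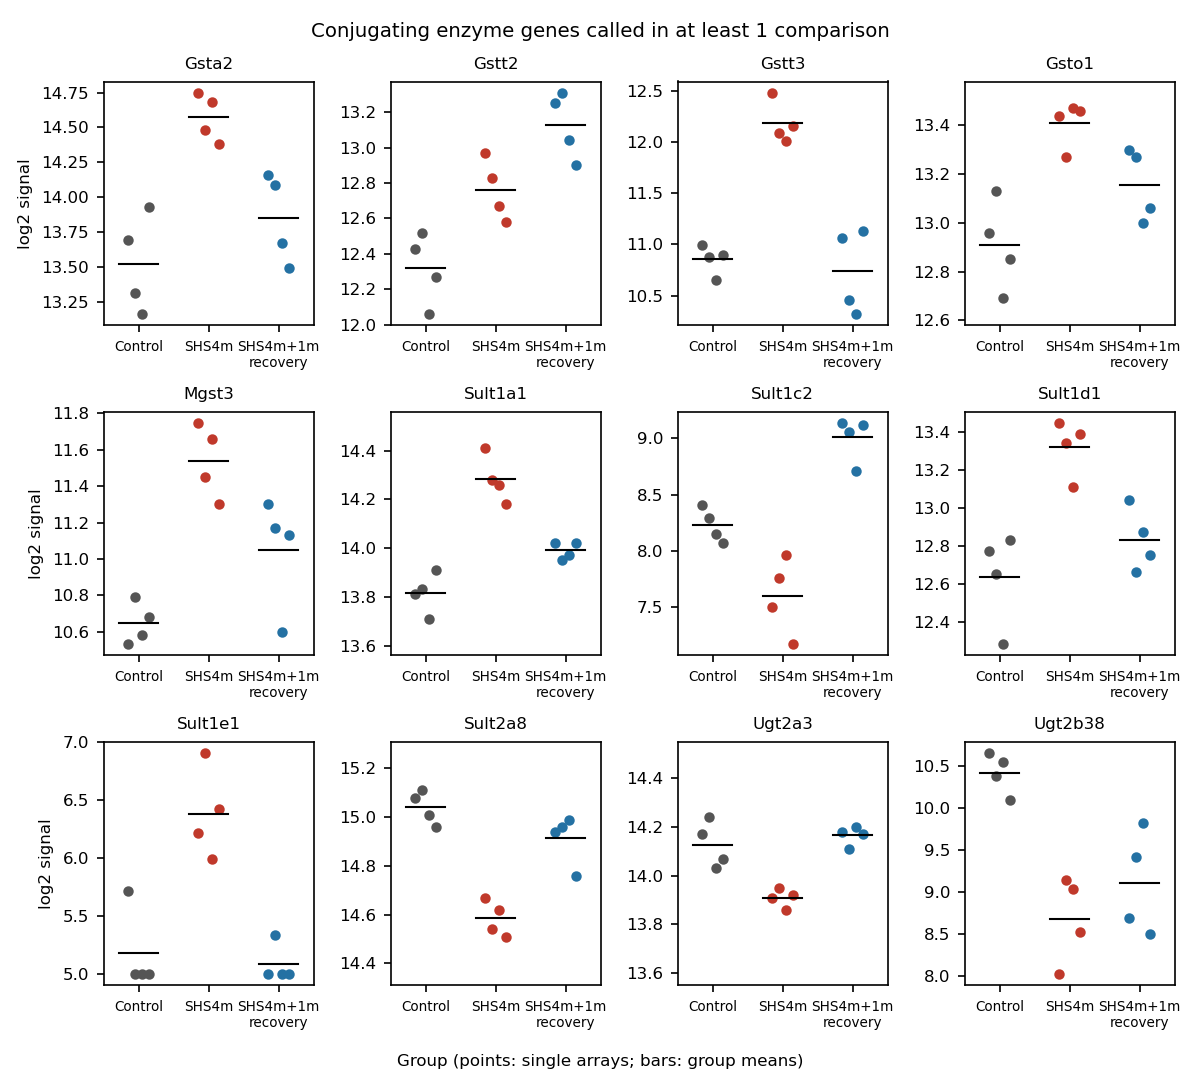
Log2 signal on each array (y axis, a separate range for each gene) of the 12 conjugating enzyme genes that passed the adjusted p in at least 1 of the 3 comparisons, by group (x axis, controls first, then SHS4m and SHS4m+1m recovery mice). Points are single arrays and bars are group means; the SHS4m arrays of Gstt3 lie at 12.01 to 12.48 and those of both other groups at 10.32 to 11.13.

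Sulfotransferases changed in both directions. In SHS4m mice 3 of 13 rose and 1 fell, where 3.73% of all genes rose and 3.74% fell. After recovery 1 stood above the controls, where 1.37% of all genes did. Sult1a1, which sulfates phenols, read 13.81, 13.83, 13.71 and 13.91 in controls, 14.41, 14.28, 14.26 and 14.18 in SHS4m mice and 14.02, 13.95, 13.97 and 14.02 in recovery mice (1427345_a_at). The 3 groups did not overlap, with recovery mice between controls and SHS4m mice. In SHS4m mice Sult1a1 rose 1.38-fold (log2 0.47 with a standard error of 0.0538, adjusted p = 0.00176). The difference from control after recovery was 0.17 (95% interval 0.05 to 0.29, adjusted p = 0.162), and recovery mice were 1.23-fold lower than SHS4m mice (log2 -0.29, adjusted p = 0.0247). The last call was lost in 10 of 20 alternatives (adjusted p up to 0.254), among them quantile normalization, median centring, another or no floor, and the removal of SHS4m replicate 67 or 68 or recovery replicate 71 or 72.

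Sult1d1, which sulfates catecholamines, and Sult1e1, which sulfates estrogens, start 22605 bp apart on chromosome 5, and both rose in SHS4m mice. Sult1d1 (1448973_at) read 12.77, 12.65, 12.28 and 12.83 in controls, 13.45, 13.34, 13.11 and 13.39 in SHS4m mice and 13.04, 12.66, 12.87 and 12.75 in recovery mice. Its SHS4m arrays lay above both other groups, which overlapped. Sult1d1 rose 1.61-fold (log2 0.69 with a standard error of 0.131, adjusted p = 0.0158), and by a further probe set (1418138_at) 1.79-fold (log2 0.84, adjusted p = 0.00966). Between recovery and SHS4m mice the first probe set differed by -0.49 (adjusted p = 0.0926), while the second was lower in recovery mice (log2 -0.66, adjusted p = 0.0444).

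Sult1e1 was dim. Before the floor was applied, its signal (1420447_at) was 52.8, 11.1, 2.45 and 3.51 in controls, 74.4, 120, 63.5 and 85.9 in SHS4m mice and 28.9, 40.4, 1.18 and 14.5 in recovery mice. All 4 SHS4m arrays were above the floor, against 1 array in each of the other groups. With the floor, Sult1e1 rose in SHS4m mice (log2 1.20 with a standard error of 0.221, adjusted p = 0.0138) and was lower in recovery than in SHS4m mice (log2 -1.30, adjusted p = 0.0178). Both differences are limited by the floor, and with log2 of the signal plus 16 in its place the adjusted p of the second was 0.148 and neither call remained. Sult1b1, whose start lies 30811 bp from that of Sult1d1, had a SHS4m difference of 0.19 (adjusted p = 0.612).

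Sult2a8, a bile acid sulfotransferase of mouse liver, was the called sulfotransferase that fell. It read 15.08, 15.11, 15.01 and 14.96 in controls, 14.67, 14.54, 14.62 and 14.51 in SHS4m mice and 14.94, 14.96, 14.99 and 14.76 in recovery mice (1428981_at). SHS4m mice were below every other array. In SHS4m mice Sult2a8 fell 1.37-fold (log2 -0.46 with a standard error of 0.0588, adjusted p = 0.00292), and after recovery its difference from control was -0.13 (adjusted p = 0.395). Recovery mice were 1.25-fold above SHS4m mice (log2 0.33, adjusted p = 0.023), a call lost in 9 of 20 alternatives (adjusted p up to 0.209), among them median centring, another or no floor, a fit of 8 arrays, and the removal of SHS4m replicate 67 or 69 or recovery replicate 70, 71 or 72.

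Sult1c2 had its lowest level in SHS4m mice and its highest after recovery. The gene, of a family that sulfates phenols, read 8.41, 8.29, 8.15 and 8.07 in controls, 7.50, 7.76, 7.96 and 7.17 in SHS4m mice and 9.14, 9.06, 8.71 and 9.12 in recovery mice (1449409_at). No group overlapped another. Recovery mice were above SHS4m mice (log2 1.41 with a standard error of 0.168, adjusted p = 0.00418), and this call stood in each of the 20 alternatives. Against control the difference was -0.63 in SHS4m mice (adjusted p = 0.0627) and 0.78 in recovery mice (1.72-fold, adjusted p = 0.0492). The second was lost in 16 of 20 alternatives, among them the removal of any control array, SHS4m replicate 66 or 67 or any recovery array (adjusted p up to 0.126).

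Of the sulfotransferases that were not called in SHS4m mice, Sult3a1 had the highest difference. Sult3a1, which sulfates amines, was at the floor on every control and recovery array and on SHS4m replicate 67, and read 6.22, 6.63 and 5.68 on the other 3 SHS4m arrays, a difference of 0.88 (adjusted p = 0.114). In recovery mice the largest difference among those not called was -0.43 for Sult5a1 (adjusted p = 0.221). Sult2b1 was at the floor on all 12 arrays, Sult1c1 and Sult6b1 on 11 each. Over the 41 genes, 8 were at the floor on at least 6 arrays and 31 on none.

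The 10 glucuronosyltransferases held 2 calls in SHS4m mice, both falls, where 3.74% of all genes fell. They held none after recovery, where 2.52% of all genes were called. Ugt2b38 (1423397_at) had the largest fall. It read 10.66, 10.38, 10.55 and 10.10 in controls, 8.02, 9.14, 9.03 and 8.52 in SHS4m mice and 8.69, 9.42, 9.82 and 8.50 in recovery mice. Every array of both exposed groups lay below every control array, and the exposed groups overlapped each other. In SHS4m mice Ugt2b38 fell 3.36-fold (log2 -1.75 with a standard error of 0.332, adjusted p = 0.0162). After recovery its difference from control was -1.32 (95% interval -2.06 to -0.57, adjusted p = 0.0849), and recovery and SHS4m mice differed by 0.43 (adjusted p = 0.677).

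Ugt2b37, the gene whose upstream sequence was most like that of Ugt2b38, had its lowest mean in recovery mice and was not called in any comparison. Ugt2b37 (1449890_at) read 8.42, 7.80, 7.94 and 8.15 in controls, 6.84, 9.04, 8.24 and 8.32 in SHS4m mice and 7.06, 6.62, 6.68 and 6.59 in recovery mice. All recovery arrays were below all controls, and SHS4m replicate 66 lay among the recovery arrays while the other 3 SHS4m arrays lay above or among the controls. The difference from control was 0.03 in SHS4m mice (adjusted p = 1) and -1.34 in recovery mice (95% interval -2.20 to -0.47, adjusted p = 0.133), so neither passed the test. Between recovery and SHS4m mice it was -1.37 (adjusted p = 0.115). These tests used a spread pooled over the 3 groups. The standard deviation was 0.267 in controls, 0.918 in SHS4m mice and 0.22 in recovery mice. The wide SHS4m group thus also entered the test of recovery mice against control.

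The sequences before the starts of these genes are printed because the upstream windows of Ugt2b38 and Ugt2b37 were the most alike of the Ugt2b genes. Their differences from control were -1.75 and 0.03 in SHS4m mice and -1.32 and -1.34 in recovery mice, and the difference between the genes was not tested. Each run is the 250 bases upstream of the RefSeq start on GRCm38.p6, minus strand, 5′ to 3′. In Ugt2b37 and Ugt2b5, capitals mark bases that did not match Ugt2b38 in a global alignment (26 and 38 bases, ends included), and Ugt2b38 is in lower case throughout. The windows are Ugt2b38 at chr5:87424204-87424453, Ugt2b37 at chr5:87254789-87255038 and Ugt2b5 at chr5:87140341-87140590.
Ugt2b38: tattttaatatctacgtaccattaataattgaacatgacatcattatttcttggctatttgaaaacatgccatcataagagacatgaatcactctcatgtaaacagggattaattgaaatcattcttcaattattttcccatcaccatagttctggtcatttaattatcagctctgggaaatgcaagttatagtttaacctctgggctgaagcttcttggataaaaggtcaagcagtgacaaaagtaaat
Ugt2b37: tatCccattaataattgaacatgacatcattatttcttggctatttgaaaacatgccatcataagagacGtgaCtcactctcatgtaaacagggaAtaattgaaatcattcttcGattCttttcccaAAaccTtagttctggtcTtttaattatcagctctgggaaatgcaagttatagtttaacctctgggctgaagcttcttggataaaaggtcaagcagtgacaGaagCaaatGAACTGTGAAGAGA
Ugt2b5: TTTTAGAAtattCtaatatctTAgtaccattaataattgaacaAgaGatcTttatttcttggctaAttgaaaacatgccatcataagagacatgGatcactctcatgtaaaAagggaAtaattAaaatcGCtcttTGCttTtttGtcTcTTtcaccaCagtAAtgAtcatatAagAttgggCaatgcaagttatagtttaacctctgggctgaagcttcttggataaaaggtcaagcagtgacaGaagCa

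Identity over all alignment columns was 84.8% between Ugt2b37 and Ugt2b38, 81.5% between Ugt2b38 and Ugt2b5 and 72.6% between Ugt2b37 and Ugt2b5, against 46.3% to 60.1% for the 18 other pairs of Ugt2b genes. Ugt2b5 differed from control by -0.06 in SHS4m mice (adjusted p = 0.801) and by 0.00 in recovery mice. Similar transcripts can share probes, and cross-hybridisation between these genes was not tested.

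**Figure D3:**
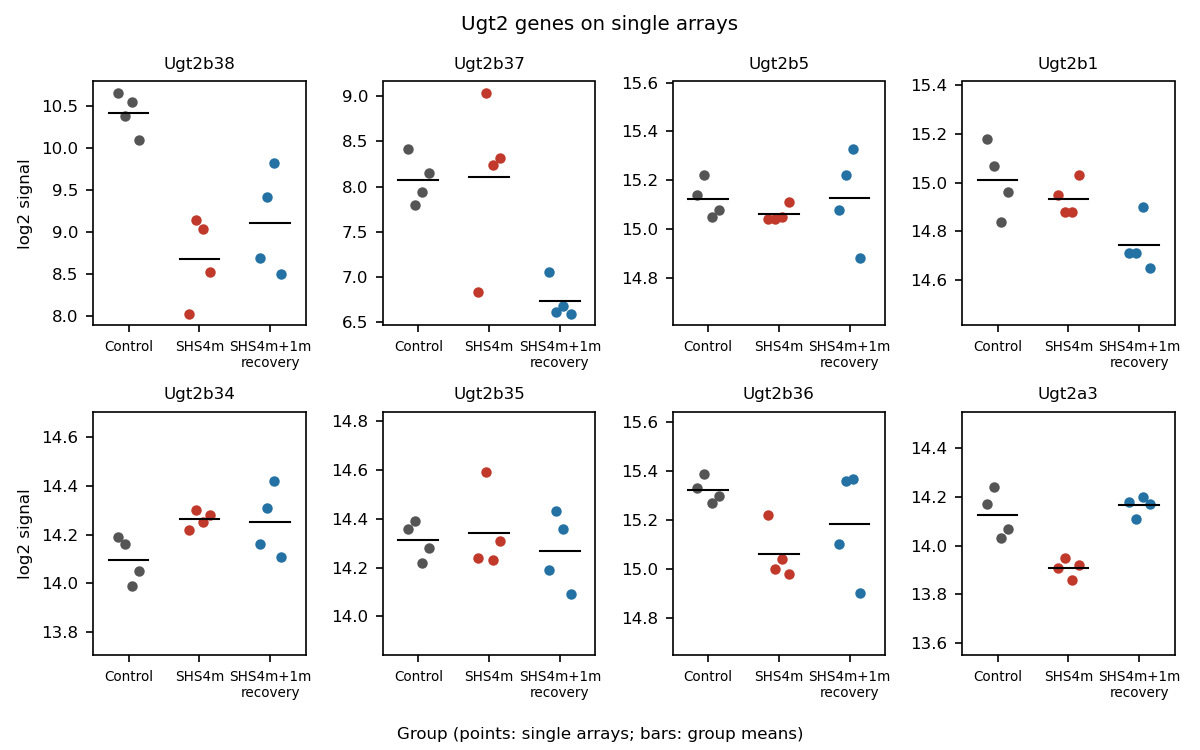
Log2 signal on each array (y axis, a separate range for each gene) of the 8 Ugt2 genes with a probe set of their own, by group (x axis, controls first, then SHS4m and SHS4m+1m recovery mice). Points are single arrays and bars are group means; the recovery arrays of Ugt2b37 lie at 6.59 to 7.06 and its controls at 7.80 to 8.42.

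Ugt2a3, a glucuronosyltransferase of liver and gut, fell slightly in SHS4m mice. It read 14.17, 14.24, 14.03 and 14.07 in controls, 13.91, 13.95, 13.86 and 13.92 in SHS4m mice and 14.18, 14.11, 14.20 and 14.17 in recovery mice (1450133_at). SHS4m arrays lay below both other groups, which overlapped. The fall was 1.16-fold (log2 -0.22 with a standard error of 0.0454, adjusted p = 0.0248), and recovery mice were 1.19-fold above SHS4m mice (log2 0.26, adjusted p = 0.0221). Both calls were lost without SHS4m replicate 66, 68 or 69, the first also without control replicate 1 and the second without recovery replicate 70, 72 or 73 (adjusted p up to 0.0674 and 0.0587). Under median centring neither call remained, with adjusted p up to 0.525 and 0.315 over all alternatives.

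The other Ugt2 genes differed little from control. Of the 8 glucuronosyltransferases not called in SHS4m mice the differences ran from -0.26 (Ugt2b36, adjusted p = 0.201) to 0.16 (Ugt2b34, adjusted p = 0.269). Seen along chromosome 5 the starts follow in the order Ugt2b34, Ugt2b1, Ugt2b35, Ugt2b36, Ugt2b5, Ugt2b37, Ugt2a3 and Ugt2b38, and after 113992 bp Sult1b1, Sult1d1 and Sult1e1. The Ugt1a genes, which share their last exons and of which Ugt1a1 conjugates bilirubin, were read only together, by 3 probe sets that each name Ugt1a1, Ugt1a2, Ugt1a5, Ugt1a6a, Ugt1a6b, Ugt1a7c, Ugt1a9 and Ugt1a10. Their differences from control were 0.03 (1424783_a_at), -0.19 (1426260_a_at) and -0.02 (1426261_s_at) in SHS4m mice, with adjusted p of 0.921, 0.399 and 0.995, and 0.07, -0.09 and -0.09 in recovery mice. A joint reading of 8 genes does not show the level of any single one. The dim probe set of Ugt2a1 and Ugt2a2 (1421484_at) differed by 0.40 in SHS4m mice (adjusted p = 0.661) and 0.29 in recovery mice (adjusted p = 0.828).

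**Figure D4:**
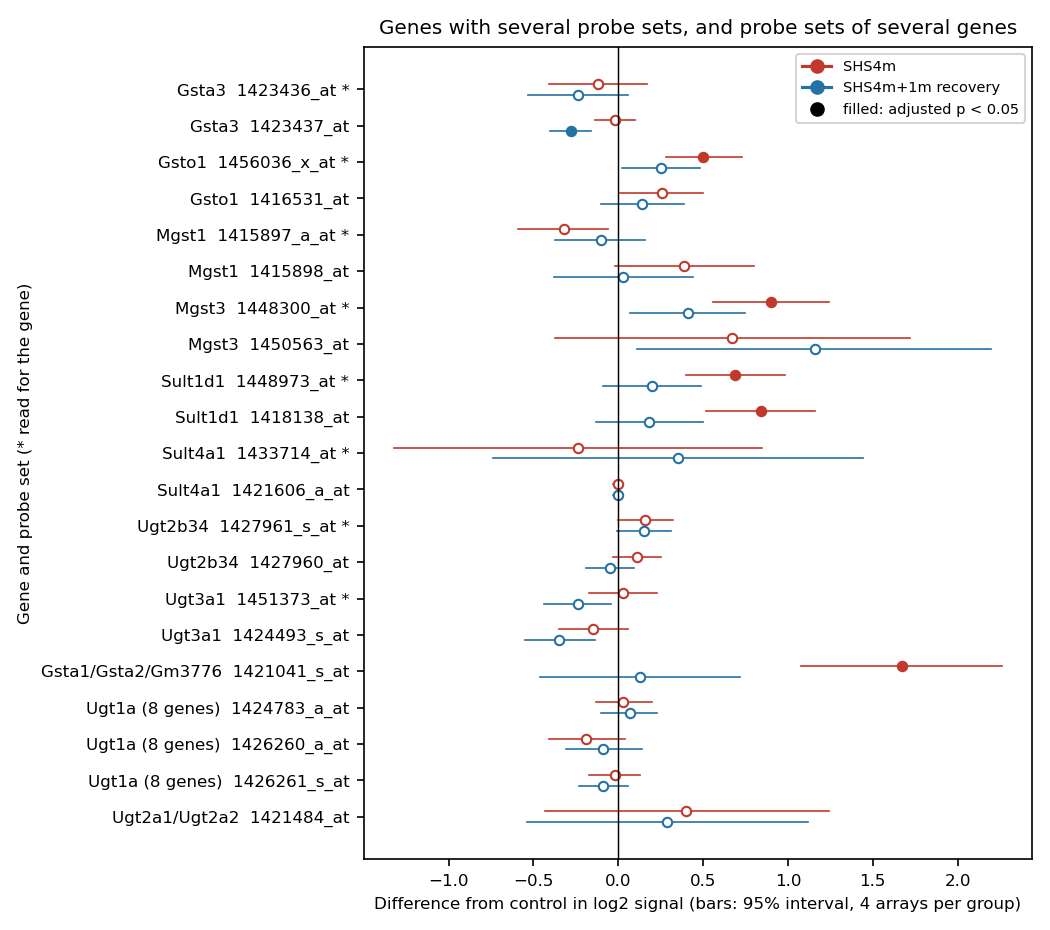
Difference from control in log2 signal (x axis) for each probe set of the genes with several probe sets of their own, and for the probe sets that name several genes (y axis), with 95% intervals. An asterisk marks the probe set read for a gene, and filled points passed the adjusted p; the probe set shared by Gsta1, Gsta2 and Gm3776 lies farthest to the right in SHS4m mice at 1.67.

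The N-acetyltransferases Nat1 and Nat2 were not called in any comparison, with SHS4m differences of 0.03 and -0.32 (adjusted p = 0.455 for Nat2). In all, 12 of the 41 genes were called in at least 1 comparison and 29 in none. Of these 29, 27 lay within 0.5 of the control in log2 signal in both comparisons with control. These counts over several comparisons were not made for all genes, so they have no share beside them. In single comparisons, 7.47% of all genes were called in SHS4m mice, 2.52% after recovery and 3.68% between recovery and SHS4m mice.

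After recovery the 41 genes had a median log2 difference from control of -0.03, against 0.00 over all genes. The 2 genes above control at the adjusted p compare with 1.37% of all genes, and no gene was below it, where 1.14% of all genes were. At an unadjusted p under 0.05 the count was 11 of these 41 genes and 2927 of all 18193 genes. Ugt2b37 and Ugt2b38, both lower, passed the study's threshold, which 1.21% of all genes passed. The arrays of the groups did not overlap for 9 of the 41 genes, 3 above and 6 below, where 9.56% of all genes did not overlap. Of the 10 genes called in SHS4m mice, differences from the same controls after recovery were 0.33 for Gsta2, -0.11 for Gstt3, 0.25 for Gsto1, 0.41 for Mgst3, 0.17 for Sult1a1, 0.20 for Sult1d1, -0.10 for Sult1e1, -0.13 for Sult2a8, 0.04 for Ugt2a3 and -1.32 for Ugt2b38, and none of them passed.

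Recovery and SHS4m mice were also set against each other, which tests whether a level after 1 month in clean air differed from that at the end of exposure. Sult1c2, Sult2a8 and Ugt2a3 were higher in recovery mice, where 2.01% of all genes were, and Gstt3, Sult1a1 and Sult1e1 were lower, where 1.68% were. The study's threshold was passed by 4 of the 41 genes, 1 higher and 3 lower, against 1.93% of all genes. Arrays of the groups did not overlap for 10 of the 41 genes, 3 above and 7 below, against 11.3% of all genes. Under median centring of the arrays, 3 genes were called, of which 33.3% were higher, against 50% of 6. Without recovery replicate 72, the array with the high actin ratio, Sult1a1, Sult2a8 and Ugt2a3 lost their calls, and the count was 3.

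RefSeq promoters were matched for 34 of the 41 genes, and the 250 bases before each start were searched on both strands for the core letters of known response elements. The xenobiotic response element core GCGTG lay in 5 of these 34 windows (Gsta2, Gstp1, Gstp3, Mgst3 and Sult1d1) and in 28.2% of 27025 windows of all genes. The antioxidant response element core TGACNNNGC lay in 2 (Gsta3 and Mgst1) and in 10.1% of all windows, and the HNF1 core GTTAATNAT lay in Sult1d1 and in 0.781% of all windows. A match says only that these letters are in the window. Gstp1, Gstp3, Gsta3 and Mgst1 held a match and were not called in SHS4m mice by the probe set read. Gstt3, Gsto1, Sult1a1 and Sult1e1 rose and held no match. The 3 windows below belong to genes that rose and held a match, all on the minus strand of GRCm38.p6, with the matches in capitals (Gsta2 at chr9:78347146-78347395, Mgst3 at chr1:167393842-167394091 and Sult1d1 at chr5:87569007-87569256). In Sult1d1 the first match is the HNF1 core at -79 to -71 from the start, and the second, at -47 to -43, is GCGTG read on the opposite strand.
Gsta2: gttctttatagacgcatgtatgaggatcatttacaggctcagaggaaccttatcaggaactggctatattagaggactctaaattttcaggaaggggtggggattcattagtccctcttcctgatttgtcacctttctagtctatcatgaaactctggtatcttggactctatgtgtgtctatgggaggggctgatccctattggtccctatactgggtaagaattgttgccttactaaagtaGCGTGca
Mgst3: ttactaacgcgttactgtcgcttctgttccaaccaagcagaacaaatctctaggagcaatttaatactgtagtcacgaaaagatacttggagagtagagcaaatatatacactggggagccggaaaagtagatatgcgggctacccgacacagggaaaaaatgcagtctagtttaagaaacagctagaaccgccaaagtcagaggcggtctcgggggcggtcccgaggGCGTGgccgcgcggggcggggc
Sult1d1: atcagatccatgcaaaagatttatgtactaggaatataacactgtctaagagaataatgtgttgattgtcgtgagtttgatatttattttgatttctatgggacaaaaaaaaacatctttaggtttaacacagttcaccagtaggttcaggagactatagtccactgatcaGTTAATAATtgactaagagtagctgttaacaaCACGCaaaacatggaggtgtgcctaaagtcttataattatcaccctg

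Genes that supply the conjugating enzymes were read as 3 lists. Of all genes, 7.47% were called in SHS4m mice against control, 2.52% in recovery mice against control and 3.68% between recovery and SHS4m mice. Of 5 genes for UDP-glucuronic acid, Slc35d1, a carrier of UDP-sugars into the endoplasmic reticulum, rose in SHS4m mice (log2 0.33, adjusted p = 0.0216), and Slc35b1, a carrier of the same membrane known for exchanging ATP, was lower in recovery mice than in controls (log2 -0.42, adjusted p = 0.0349). Ugdh, which makes UDP-glucuronic acid, differed by 0.15 in SHS4m mice (adjusted p = 0.49). Of 8 genes for the sulfate donor PAPS, none was called in SHS4m mice, and the PAPS carrier Slc35b2 was higher in recovery mice than in controls (log2 0.66, adjusted p = 0.024). Of 10 genes for glutathione, Oplah, which recycles glutamate from oxoproline, rose in SHS4m mice (log2 0.42, adjusted p = 0.0411). Gsr, which reduces oxidised glutathione, and Cth, which makes cysteine, were lower in recovery than in SHS4m mice (log2 -0.38 and -0.64, adjusted p = 0.0205 and 0.0153). The medians of these 3 lists in SHS4m mice were 0.15, 0.01 and 0.08, against -0.01 over all genes.

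Among 13 other conjugating and detoxifying enzymes 4 rose in SHS4m mice and none fell, where 3.73% of all genes rose and 3.74% fell. These were the epoxide hydrolase Ephx1 (log2 0.79, adjusted p = 0.00129), the quinone reductase Nqo1 (0.94, adjusted p = 0.0274), the nicotinamide methyltransferase Nnmt (1.21, adjusted p = 0.0111) and Acsm1, an acyl-CoA synthetase of glycine conjugation (0.38, adjusted p = 0.00604). Each of the 4 was lower in recovery than in SHS4m mice, with Nnmt at -1.56 (adjusted p = 0.00686), Nqo1 at -0.92 (adjusted p = 0.0492), Ephx1 at -0.51 (adjusted p = 0.0172) and Acsm1 at -0.32 (adjusted p = 0.0245), while the methyltransferase Inmt was higher (0.58, adjusted p = 0.0416). Of all genes, 2.01% were higher and 1.68% lower in recovery than in SHS4m mice. None of the 13 was called against control after recovery, where 2.52% of all genes were. Of 3 hydrolases of conjugates, the glucuronidase Gusb was lower in recovery than in SHS4m mice (-0.30, adjusted p = 0.0465) and none was called against control.

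Of 13 receptors and regulators that act on conjugating enzymes, 3 rose in SHS4m mice, where 3.73% of all genes rose. They were Nr1i2, the pregnane X receptor (log2 0.60, adjusted p = 0.00254), Ahr, the receptor for aromatic hydrocarbons (0.81, adjusted p = 0.028), and Rxra, the partner of many nuclear receptors (0.38, adjusted p = 0.0018). Nr1i2 and Rxra were also above control after recovery (0.38 and 0.24, adjusted p = 0.0349 and 0.0305), where 1.37% of all genes were. By its brightest probe set Nfe2l2, which encodes NRF2, differed by -0.66 in SHS4m mice (adjusted p = 0.141). The paper lists a different Nfe2l2 probe set, not read here, as higher at the end of exposure, so the direction depends on the probe set. Nr1i3, the constitutive androstane receptor, differed by 0.35 (adjusted p = 0.352). None of the 13 was called between recovery and SHS4m mice.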

How the data were processed

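Liver RNA of 12 mice in 3 groups of 4 was measured on Affymetrix mouse genome arrays, and samples were grouped by their labels. The authors deposited probe set intensities on a linear scale, made in Affymetrix Expression Console. On control replicate 1 the mean was 500 after trimming 2% of values at each end. A scaling of the arrays to this mean is inferred from that value. The summarisation algorithm and version are not given in the sources used here. Whether the scaling hides a shift common to most probe sets was not tested.
Intensities were floored at 32 and log2-transformed, and 45037 probe sets (64 array controls left out) were fitted in 1 model of the 3 groups with limma 3.58.1 in R 4.3.3, with two-sided p-values adjusted by Benjamini-Hochberg over all probe sets. Each p rests on the spread between mice within groups, pooled over the 3 groups and moderated by limma towards that of all probe sets. Genes were named from the platform annotation (9160 probe sets had no name here) and read by their brightest probe set naming that gene alone. Genes called in any comparison were named with the values of each array; of those not called, the 2 with the largest difference per family and comparison could be named. Gstt1, Gstt4, Sult1b1 and Ugt2b5, next to or alike in sequence to a called gene, and Gsta3, for its dimmer probe set, were named outside this rule after their values were seen; Ugt2b37 is named for its difference in recovery mice. Levels of different probe sets were not compared. Members and lists were chosen with earlier results of these data known. Upstream sequences came from RefSeq (GRCm38.p6). Alternatives were quantile normalization, median centring, another floor, no floor, a filter on dim probe sets, fits of 8 arrays, trended robust moderation, the mean of a gene's probe sets, the threshold of the study's methods and the removal of each array. The fit was tested on simulated data. No pair of arrays was identical (highest correlation 0.9797). With 4 arrays per group, their number limits the precision.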

Additional observations from a re-analysis of the deposited data

Results flagged for a closer look

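For 6 genes the difference from control at the end of exposure and the difference after recovery were themselves unlike, as tested by setting recovery against SHS4m mice. The log2 difference was 1.41 for Sult1c2, -1.44 for Gstt3, -1.30 for Sult1e1, -0.29 for Sult1a1, 0.33 for Sult2a8 and 0.26 for Ugt2a3.
In 36 groups of 4 arrays (the 12 called genes in each group), 3 held an array far from the other arrays, and chance alone gives such an array in about 1 of 20 groups. Control replicate 1 read 5.72 for Sult1e1 and recovery replicate 71 read 5.34, where the other 3 arrays of each group were at the floor, so that any value above the floor would stand apart. SHS4m replicate 67 read 13.27 for Gsto1, below the other SHS4m arrays at 13.44 to 13.47.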

How the results depend on the processing

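Of 18 calls of single genes in the 3 comparisons, 8 stood in every alternative run, 10 were lost in at least 1 and none changed sign. In SHS4m mice against control the count of 10 genes was 8 to 10 under other processing, 8 to 11 with an array left out and 4 at the threshold of the study's methods. After recovery against control the count of 2 was 1 with centring, with a floor at the 25th percentile of each array, with no floor, with trended robust moderation and with the mean of a gene's probe sets, and 4 (2 higher, 2 lower) among probe sets over 100. With the 8 arrays of both groups it was also 1, a lower gene, and neither Gstt2 nor Sult1c2 was called. With an array left out it was 1 to 2, and it was 1 without any control or recovery array or SHS4m replicate 67. Without SHS4m replicate 66 the 2 genes were 1 higher and 1 lower, and only 1 of them was among the 2 of the main fit. Between recovery and SHS4m mice the count of 6 was 3 with centring, 3 with the 25th percentile floor and 2 with no floor, and 3 to 7 with an array left out, the lowest without recovery replicate 72. Centring moved the median of all probe sets by 0.08 against control and by 0 between recovery and SHS4m mice, and the cause of the losses was not tested. Genes near the floor, 8 of the 41 on at least 6 arrays, can show only part of a change. No paired analysis was possible because the groups share no replicate numbers.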
